A study of Mus musculus with 69 samples.

Results

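Hypothalamus from young female mice was compared between animals in which 1 Zeb1 allele could not be repressed by miR-200 (Zeb1_200H, hereafter 200H) and animals with unaltered Zeb1 (Zeb1_WT, hereafter WT). The comparison holds 8 of the 69 libraries of the series, 4 from 200H and 4 from WT females, and was chosen by tissue, cohort and genotype. Every gene in the deposited counts was considered. In 200H mice, point mutations in the 3′ UTR of 1 Zeb1 allele disrupt its binding sites for miR-200a and miR-200b, and the other allele is unaltered. The labels give no other allele and no treatment for either group, and both genotypes were on a C57BL/6J background. The mutation is present in the germ line, so every cell type of the tissue carries it. The mutant mice came from 2 clonal lines, and the labels do not give the line of each library. All 8 animals were virgin females of 8 to 12 weeks, staged by vaginal cytology and collected at proestrus, the day of the ovulatory hormone surge. Each library was made from the whole hypothalamus of a different mouse, so several types of neuron and glia were measured together.

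ZEB1 is a DNA-binding repressor best known for silencing epithelial genes during epithelial-mesenchymal transition. Members of the miR-200 superfamily repress Zeb1 and its paralog Zeb2, and ZEB1 in turn represses the genes that encode these miRNAs, so that the regulators form a double-negative feedback loop. The hypothalamus commands the pituitary through releasing hormones and holds the neurons that set feeding, arousal, daily rhythm and the reproductive cycle. The comparison asks whether releasing 1 Zeb1 allele from miR-200 altered Zeb1 and other RNAs in this tissue.

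The 5 mature miRNAs to which the 200H allele was made resistant are shown because their seeds define the disrupted sites. They fall into 2 families by the seed, bases 2 to 8 from the 5′ end, which is in capitals and which differs between the families at a single base. All are from RefSeq, on GRCm38.p6.
mmu-miR-200b-3p: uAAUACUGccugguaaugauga
mmu-miR-200c-3p: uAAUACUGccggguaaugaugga
mmu-miR-429-3p: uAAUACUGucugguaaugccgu
mmu-miR-200a-3p: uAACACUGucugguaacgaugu
mmu-miR-141-3p: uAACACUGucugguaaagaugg
The miR-200b, miR-200a and miR-429 sequences lie on the minus strand of chromosome 4, at chr4:156055685-156055706, chr4:156054911-156054932 and chr4:156053916-156053937. Those of miR-200c and miR-141 lie on the minus strand of chromosome 6, at chr6:124718324-124718346 and chr6:124717917-124717938.

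The libraries held 3321845 to 4673023 counts assigned to genes, and mitochondrial genes took 9.97 to 11.8% of them. Levels are given below as CPM, the count scaled to a library total of 1000000 with TMM factors, and fold changes as log2 of 200H over WT. The 200H replicate 3 library stood apart. In it 247 genes were lower by more than 1 log2 unit than the median of the other 200H libraries, against 57 to 142 genes in each of the other 7 libraries. Among those genes were Igf2, a growth factor gene active in the meninges, at 70.0 CPM against 265.8 to 435.3 CPM in the other 200H libraries, and Cdh1, encoding the epithelial cadherin, at 0.304 CPM against 13.3 to 15.7 CPM.

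The tissue carried the RNAs of several hypothalamic territories. The regional transcription factors Sim1, Otp, Six3 and Nkx2-1 were each above 34 CPM in all 8 libraries, and Pmch, Trh, Sst, Avp and Hcrt, which encode peptides of separate hypothalamic neuron types, were all detected. Some peptide genes had few counts. Agrp, a peptide gene of hunger-promoting arcuate neurons, averaged 0.462 CPM in WT and 0.506 CPM in 200H. Crh, which encodes the hormone that releases corticotropin, averaged 0.851 and 1.52 CPM, and Kiss1, the kisspeptin gene, 0.542 and 0.145 CPM. None of these 3 genes passed the filter for testing, and Agrp and Kiss1 also overlap other annotated genes on the same strand, which makes their counts uncertain. Gnrh1, encoding gonadotropin-releasing hormone, also fell short of it. Its levels were 1.58, 1.32, 1.02 and 1.06 CPM in WT replicates 1 to 4 and 1.88, 1.01, 2.13 and 1.74 CPM in 200H replicates 1 to 4, so the groups overlapped and no difference was detectable at this depth.

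Zeb1 RNA did not differ detectably between the genotypes. Zeb1 (ENSMUSG00000024238, chr18:5591860-5775467 on the plus strand of mm10) was at 221.4, 218.5, 226.5 and 221.6 CPM in WT and at 217.4, 191.1, 230.9 and 217.2 CPM in 200H. The 200H libraries lay on both sides of the narrow WT range. The means were 222.0 ± 3.32 and 214.2 ± 16.7 CPM (SD, n = 4 each), and the log2 fold change was -0.05 with a 95% interval of -0.18 to 0.07 (edgeR quasi-likelihood test, unadjusted p = 0.379, adjusted p = 0.998). This is a measurement of RNA only, and the 2 alleles were counted together.

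The host transcripts of the miR-200 genes were close to the limit of detection. Gm13648 (chr4:156052715-156059802, minus strand), whose span holds the miR-200b, miR-200a and miR-429 genes, had a count in only 1 of the 8 libraries, WT replicate 2, at 0.528 CPM. Gm15884 (chr6:124715573-124718831, minus strand), which spans the miR-200c and miR-141 genes, was at 0.264, 0, 0 and 0.213 CPM in WT and had no count in 200H. Neither could be tested, and Gm13648 overlaps Ttll10 on the same strand, so its count is uncertain. In young WT pituitary, counted in the same way, the same transcripts averaged 15.7 and 2.22 CPM.

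Zeb2, the paralog that is itself a miR-200 target and is expressed in oligodendrocytes and microglia as well as neurons, was slightly lower in each 200H library. Zeb2 (ENSMUSG00000026872, chr2:44983632-45117395, minus strand) was at 252.8, 226.2, 221.4 and 224.5 CPM in WT and at 203.9, 196.1, 196.6 and 199.5 CPM in 200H. The groups did not overlap, and WT replicate 1 was the highest. The log2 fold change of -0.22 (95% interval -0.33 to -0.10) had an unadjusted p of 0.000789 and did not pass adjustment over all genes (adjusted p = 0.714). Of the 7 genes of the Zeb, Snail and Twist families, Zeb1, Zeb2 and Snai2 were abundant enough to test, and Zeb2 alone had an unadjusted p under 0.05.

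Across the genome, 2 of 14875 tested genes passed an adjusted p of 0.05, which is 0.0134% of those tested. Lrat rose and Prl fell, so that 0.00672% of the tested genes rose and 0.00672% fell. At an unadjusted p under 0.05 there were 303 genes above and 281 genes below 0, which is 2.04% and 1.89% of those tested and 3.93% in all. The 4 libraries of one genotype lay wholly above or below the 4 of the other in 376 genes, 2.53% of those tested, with 1.28% higher and 1.25% lower in 200H. The depth allowed most differences of moderate size to be bounded. The 95% interval of the fold change lay within 1 log2 unit on either side of 0 for 92.0% of the tested genes and within 0.5 for 58.3%. Among the 10302 genes with a mean of at least 10 CPM, 99.9% had an interval within 1 log2 unit.

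Lrat, which encodes the enzyme that esterifies retinol for storage, rose. Lrat (ENSMUSG00000028003, chr3:82892579-82903973, minus strand) was at 1.58, 1.32, 0 and 4.47 CPM in WT and at 6.99, 13.1, 6.39 and 12.5 CPM in 200H. Every 200H library was above every WT library, and replicates 2 and 4 were the highest of the 200H group. The means of 1.84 ± 1.88 and 9.74 ± 3.54 CPM (SD, n = 4 each) gave a 5.29-fold ratio and a fitted log2 fold change of 2.31 (SE 0.41, 95% interval 1.48 to 3.14, adjusted p = 0.00955). The call was lost without WT replicate 1 (adjusted p = 0.149), WT replicate 2 (0.0797) or 200H replicate 2 (0.167), while the log2 fold change stayed between 1.92 and 3.31 with any 1 library left out. The call was also lost with DESeq2 (adjusted p = 0.999) and with the 200M libraries in the fit (1.0).

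RNAs of neighbouring endocrine and glial cells varied among the same libraries. Tshb, the beta subunit gene of thyrotropin, was at 0.264, 0, 0 and 0.638 CPM in WT and at 0, 5.04, 1.52 and 1.74 CPM in 200H, and was too low to test. Cga, which encodes the alpha subunit shared by thyrotropin and the gonadotropins, was at 7.64, 4.75, 1.02 and 2.55 CPM in WT and at 0, 7.3, 5.48 and 12.8 CPM in 200H (log2 fold change 0.69, unadjusted p = 0.165). Dio2, the thyroid hormone-activating deiodinase gene of tanycytes, was at 25.3, 28.0, 17.6 and 21.7 CPM in WT and at 25.0, 36.8, 22.8 and 52.3 CPM in 200H (log2 fold change 0.57, unadjusted p = 0.00292, adjusted p = 0.885). Within the 200H group, Lrat, Cga and Dio2 were each highest in replicates 2 and 4, and replicate 1 had no count of Cga or Tshb. WT replicate 1 was above 200H replicate 2 in Cga. The 8 tanycyte markers, 5 of them tested, summed to 136.2 to 146.5 CPM in WT and to 125.6, 164.9, 147.3 and 206.5 CPM in 200H. The part of these cells in the Lrat difference was not tested.

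The 300 bases around the Lrat start site (chr3:82903925-82904224, minus strand, GRCm38.p6, from RefSeq) are shown because Lrat was the only gene that rose and ZEB1 binds E-box motifs. The single match to CAGGTG or CAGGTA on either strand is in capitals and begins 199 bases before the start site.
Lrat promoter: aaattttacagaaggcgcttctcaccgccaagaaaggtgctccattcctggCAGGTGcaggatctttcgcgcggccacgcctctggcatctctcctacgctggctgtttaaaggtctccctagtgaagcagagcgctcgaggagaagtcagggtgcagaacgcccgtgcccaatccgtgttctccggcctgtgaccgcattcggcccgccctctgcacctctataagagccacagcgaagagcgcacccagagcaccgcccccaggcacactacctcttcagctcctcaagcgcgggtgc
Of 32851 promoter windows of this length, 20.2% held CAGGTG, 12.0% held CAGGTA and 29.5% held either. Of the 10 genes of smallest p above 0, 6 had a window in the table and 2 of those held a match, and of the 10 below 0, 8 had a window and 2 held a match. The Prl window (chr13:27057320-27057619) held none.

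Prl, which encodes prolactin, the main hormone of pituitary lactotropes, fell. Prl (ENSMUSG00000021342, chr13:27057570-27065205, plus strand) was at 17.4, 4.22, 24.5 and 23.8 CPM in WT and at 0, 4.03, 0 and 5.52 CPM in 200H. The groups overlapped because WT replicate 2 lay within the range of the 200H libraries. The means were 17.5 ± 9.41 and 2.39 ± 2.82 CPM (SD, n = 4 each), with a fitted log2 fold change of -2.85 (SE 0.45, 95% interval -3.77 to -1.93, adjusted p = 0.004). The call held with any 1 library left out (log2 fold change -3.58 to -2.43) but not with DESeq2 (adjusted p = 0.999), limma voom (0.177) or the 200M libraries in the fit (0.132).

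The level of Prl in the hypothalamus was a trace of that in the gland below it. In young WT pituitary Prl was at 140216.6 ± 13575.9 CPM, and the hypothalamic mean was 0.0125% of that. Gh, the growth hormone gene of somatotropes, was at 0.0145% of its pituitary level in WT hypothalamus. Gh was at 5.01, 1.32, 3.58 and 6.17 CPM in WT and at 0, 0, 0.609 and 0.581 CPM in 200H, without overlap, and was too low to pass the filter. Of 12 pituitary marker genes, 3 were tested, and the summed level of all 12 was 21.6 to 43.0 CPM in WT and 8.61 to 32.5 CPM in 200H. Lhb averaged 0.423 and 0.582 CPM. In the young pituitary itself Prl fell in 200H by 1.58 on the log2 scale, while the log2 fold change of Gh there was 0.26. The part of pituitary RNA in the Prl difference was not tested.

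**Figure D1:**
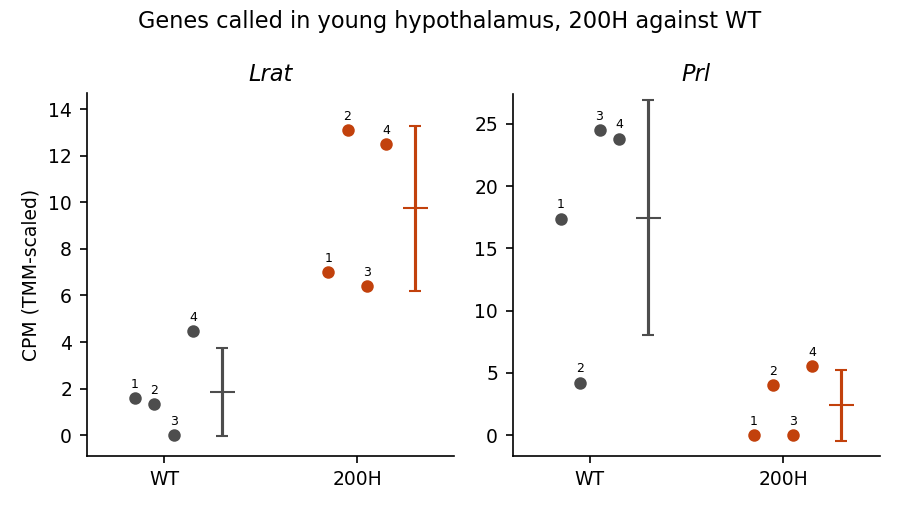
Levels of the 2 genes that passed the test, in CPM, in each WT and 200H library of young hypothalamus, with points labelled by replicate number and bars for the mean ± SD (n = 4 each). Lrat does not overlap between the genotypes, whereas Prl of WT replicate 2, at 4.22 CPM, lies within the range of the 200H libraries.

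Genes of mature oligodendrocytes, the cells that make myelin, lay below 0 together. Of 10 markers tested, 10 had a negative fold change, 6 had an unadjusted p under 0.05 and none was called. Over all tested genes, 49.3% had a negative fold change and 1.89% had an unadjusted p under 0.05 with one. The median log2 fold change of the 10 markers was -0.22, against 0.00 over all genes. Their summed level was 1692.3, 1423.4, 1550.9 and 1548.4 CPM in WT and 1334.2, 1397.8, 1460.1 and 1159.3 CPM in 200H. The sums overlapped between WT replicate 2 and 200H replicate 3, and 200H replicate 4 was the lowest. In bulk tissue, fewer oligodendrocytes in the sampled piece, for whatever reason, and less myelin RNA per cell cannot be told apart.

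Among these genes, Mbp, encoding a major myelin protein, was at 816.5, 660.8, 714.5 and 766.1 CPM in WT and at 627.8, 669.0, 676.4 and 520.7 CPM in 200H (log2 fold change -0.25, SE 0.06, adjusted p = 0.624). The groups overlapped at WT replicate 2. Ermn, which encodes a cytoskeletal protein of late myelin, was at 86.2, 83.1, 83.8 and 75.3 CPM in WT and at 70.2, 67.0, 58.7 and 65.6 CPM in 200H (log2 fold change -0.32, adjusted p = 0.664). Cldn11, the tight junction gene of myelin, was at 165.3, 138.8, 150.8 and 142.5 CPM in WT and at 137.2, 130.7, 119.0 and 119.1 CPM in 200H (log2 fold change -0.24, adjusted p = 0.885). Neither Ermn nor Cldn11 overlapped between the genotypes, and nor did Mog, a surface glycoprotein gene of myelin, with a log2 fold change of -0.27 (unadjusted p = 0.0209). Over all tested genes, 1.25% lay wholly lower in 200H. The myelin genes were measured in the same libraries, so they are not independent results. Cnp and Mal had log2 fold changes of -0.19 and -0.21, and Mag and Aspa, at -0.04 and -0.03, were near 0.

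The 10 genes below 0 of smallest p were Prl, Creb5, Tspan2, Mbp, Snx22, Ermn, Pmch, Zeb2, Car2 and 1110018N20Rik. Tspan2, a tetraspanin gene, was at 346.1, 274.2, 316.2 and 282.4 CPM in WT and at 246.9, 254.3, 265.3 and 241.3 CPM in 200H (log2 fold change -0.27, SE 0.06, adjusted p = 0.299). Tshb lies within the span of Tspan2 on the opposite strand, and reads were counted by strand. Car2, a carbonic anhydrase gene, had a log2 fold change of -0.33 and Snx22, a sorting nexin gene, one of -1.39, from a mean of 5.56 to one of 2.09 CPM. 1110018N20Rik, a non-coding RNA, had a log2 fold change of -1.15 (adjusted p = 0.714). With 200H replicate 3 left out, Mbp (adjusted p = 0.0234) and Tspan2 (0.032) were called as well.

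The count of 6 markers with an unadjusted p under 0.05 depended on single libraries. It was 3 without 200H replicate 4, 4 without WT replicate 1 and 8 without 200H replicate 3, and the median of the list stayed between -0.27 and -0.15. With the 200M libraries in the fit it was 1. Genes of the precursor cells did not lie to one side, with 3 of 6 above 0 and a median of -0.08. Pdgfra and Cspg4, the receptor and proteoglycan genes that define precursors, had log2 fold changes of 0.16 and 0.24, and Enpp6, which marks newly formed oligodendrocytes, had one of -0.63 (unadjusted p = 0.00507). Enpp6 was at 21.3, 10.6, 13.5 and 14.2 CPM in WT and at 7.8, 10.6, 10.3 and 9.87 CPM in 200H.

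**Figure D2:**
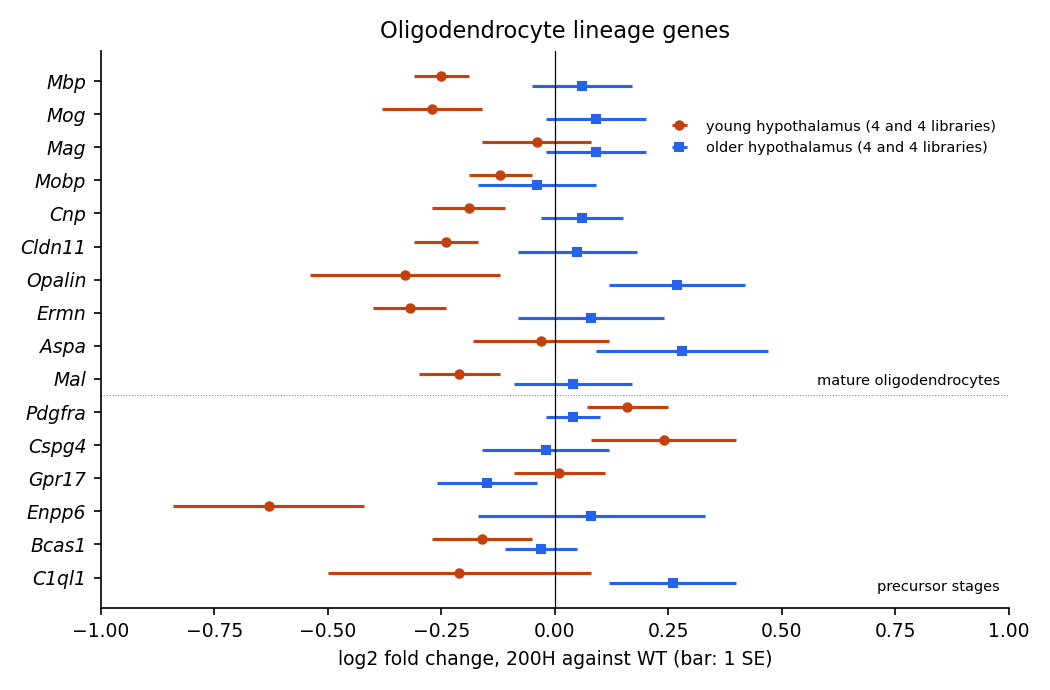
Log2 fold change of 200H over WT, ± 1 SE, for 10 markers of mature oligodendrocytes and 6 of their precursors in young and in older hypothalamus. In young hypothalamus the mature markers lie below 0 with a median of -0.22, and in older hypothalamus their median is 0.07.

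Genes of the reproductive circuit showed no called difference. Of 15 such genes 12 were tested, none was called, and the median log2 fold change was 0.08. Tac2, encoding neurokinin B, a peptide of the arcuate neurons that also make kisspeptin, was at 21.1, 23.5, 26.8 and 20.8 CPM in WT and at 29.6, 30.0, 25.9 and 35.1 CPM in 200H (log2 fold change 0.39, 95% interval 0.11 to 0.67, unadjusted p = 0.00743, adjusted p = 0.998). Its groups overlapped at 200H replicate 3. Esr1, the estrogen receptor alpha gene, was at 27.1, 28.2, 31.7 and 28.3 CPM in WT and at 34.2, 33.7, 39.6 and 31.9 CPM in 200H (log2 fold change 0.27, unadjusted p = 0.0333, adjusted p = 0.998), and its groups did not overlap. Pgr, the progesterone receptor gene, had a log2 fold change of -0.09. Pdyn, the prodynorphin gene, had one of 0.07 (95% interval -0.16 to 0.30).

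The releasing and inhibiting hormones of the pituitary likewise showed no called gene. Trh, the thyrotropin-releasing hormone gene, had a log2 fold change of -0.14 (95% interval -0.40 to 0.12), Ghrh, for growth hormone release, one of 0.21 (-0.27 to 0.69), and Sst, for somatostatin, one of -0.04 (-0.26 to 0.19). Th, the rate-limiting enzyme gene of dopamine synthesis, had one of -0.09 (-0.46 to 0.28), with means of 16.5 ± 3.48 and 15.5 ± 3.20 CPM. Dopamine from these neurons restrains prolactin release. Slc6a3, the dopamine transporter gene, was at 13.2, 1.85, 1.79 and 8.93 CPM in WT and at 4.03, 2.77, 2.74 and 1.16 CPM in 200H (log2 fold change -1.26, unadjusted p = 0.00841, adjusted p = 0.998). WT replicates 1 and 4 were high, and the other WT libraries lay within the 200H range. Avp and Oxt, the neurohypophysial hormone genes, had log2 fold changes of 0.14 and -0.23, neither with an unadjusted p under 0.05.

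Among the feeding and arousal peptides, 4 of 13 tested genes had an unadjusted p under 0.05, 2 above and 2 below 0, and none was called. Over all tested genes 3.93% had an unadjusted p under 0.05, with 2.04% above and 1.89% below 0. Npy, the appetite-promoting neuropeptide Y gene, was at 43.8, 36.4, 59.3 and 45.3 CPM in WT and at 52.5, 58.4, 62.1 and 72.6 CPM in 200H (log2 fold change 0.41, 95% interval 0.17 to 0.64, adjusted p = 0.843), with overlap at WT replicate 3. Cartpt, the gene of an appetite-suppressing peptide, had a log2 fold change of 0.30 (unadjusted p = 0.0378), with means of 27.0 ± 2.06 and 33.3 ± 7.77 CPM.

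Among other peptide genes, Pmch, which encodes melanin-concentrating hormone, was at 289.4, 301.4, 316.0 and 308.3 CPM in WT and at 282.4, 249.3, 273.8 and 240.8 CPM in 200H, without overlap (log2 fold change -0.22, 95% interval -0.33 to -0.10, adjusted p = 0.664). Hcrt, the orexin gene, was at 12.4, 20.8, 27.4 and 32.5 CPM in WT and at 17.8, 20.1, 20.7 and 4.65 CPM in 200H (log2 fold change -0.57, unadjusted p = 0.0261, adjusted p = 0.998). Its groups overlapped widely and 200H replicate 4 was the lowest. Pomc, the precursor gene of the satiety peptide alpha-MSH, had a log2 fold change of -0.57 (95% interval -1.25 to 0.10). The peptides of the suprachiasmatic clock centre had 7 tested genes and none at an unadjusted p under 0.05, with Vip at 0.42 (95% interval -0.15 to 1.00).

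**Figure D3:**
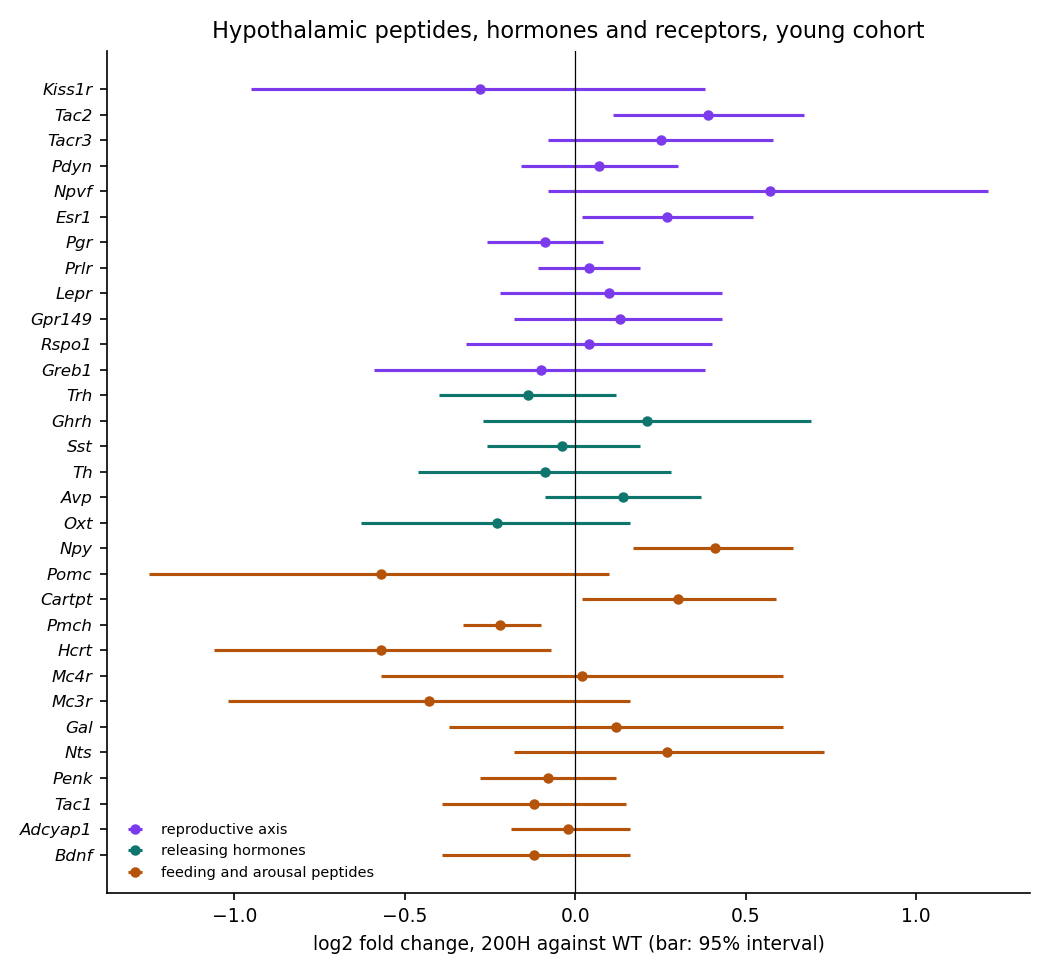
Log2 fold change of 200H over WT in young hypothalamus with its 95% interval, for the 31 tested genes of the reproductive axis, releasing hormone and feeding peptide lists. None passed the test after adjustment, and Tac2, Esr1, Npy and Cartpt above 0 and Pmch and Hcrt below 0 have intervals that leave out 0. Over all tested genes 3.93% had an unadjusted p under 0.05.

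Genes that respond to steroid hormones had 15 members tested and none called. Of these, 13 were above 0 and 3 had an unadjusted p under 0.05, all 3 above 0, with a median of 0.14, whereas over all tested genes 49.3% were below 0 and 2.04% were above 0 at that p. Without 200H replicate 2 the median was -0.01, and with any 1 library left out it was -0.01 to 0.27. Their summed level overlapped widely, at 700.6 to 891.9 CPM in WT and 642.9 to 960.0 CPM in 200H. Zbtb16, a zinc finger gene induced by glucocorticoids and progestins, was at 24.2, 23.5, 25.6 and 15.9 CPM in WT and at 34.7, 39.5, 25.9 and 35.1 CPM in 200H (log2 fold change 0.62, SE 0.15, adjusted p = 0.462). Its groups did not overlap by a narrow margin, and without 200H replicate 3 it was called (adjusted p = 0.0157). Fkbp5, a co-chaperone gene induced by glucocorticoids, and Nr3c1, the glucocorticoid receptor gene, had log2 fold changes of 0.37 and 0.15 (adjusted p = 0.998 for both). Sgk1, also induced by glucocorticoids, had one of 0.06. In older hypothalamus the median of the list was -0.26 and Zbtb16 had a log2 fold change of -0.77 (unadjusted p = 0.000863).

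Creb5, a transcription factor gene of the CREB family, was among the lowest p-values. It was at 29.0, 21.9, 29.1 and 29.3 CPM in WT and at 15.1, 13.3, 21.0 and 16.8 CPM in 200H (log2 fold change -0.74, SE 0.16, adjusted p = 0.134). The groups did not overlap, although WT replicate 2 and 200H replicate 3 were close to each other, and without 200H replicate 3 it was called (adjusted p = 0.00596). Above 0 after Lrat and Zbtb16 came Gm16227, a sense-intronic RNA (log2 fold change 1.78), Rbx1, a subunit gene of cullin ubiquitin ligases (0.50), Gm47987 (0.40) and Tekt5, a tektin gene (1.23). Then followed Fam161b (0.64), Tent5c (0.87), Gm14169 (0.96) and Bcl2, a survival gene (0.36). Of these 8 genes none was called. Gm16227 and Gm47987 lie within Rasgef1b and Mdga2 on the same strand, so their counts are uncertain.

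The epithelial program through which ZEB1 is best known was barely expressed in this tissue. Of 37 epithelial genes 10 were abundant enough to test, with a median log2 fold change of 0.01 and none called. Epcam averaged 0.821 and 0.761 CPM, Esrp1 0.17 and 0.145 CPM and Rab25 0.71 and 0.136 CPM. Cdh1 was at 16.9, 11.3, 10.5 and 11.3 CPM in WT and at 13.7, 13.3, 0.304 and 15.7 CPM in 200H, and its low mean in 200H came from replicate 3. Spint2, a protease inhibitor gene, had the lowest p of the list (log2 fold change 0.49, unadjusted p = 0.0187). Of 17 tested mesenchymal genes none was called and the median was -0.07, with Vim at 0.01 and Cdh2 at 0.02. Of 23 reported miR-200 targets other than Zeb1, all were tested, none was called and the median was -0.01. Zeb2 was the only one with an unadjusted p under 0.05.

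Neurons, astrocytes and stress responses showed no called gene. The 7 pan-neuronal markers lay between -0.03 and 0.07, and the 8 astrocyte markers between -0.15 and 0.24. None of 20 immediate early genes, 19 clock genes or 18 heat shock and endoplasmic reticulum chaperone genes had an unadjusted p under 0.05, with medians of -0.02, 0.04 and 0.08. Some lists without a called gene also lay mostly to one side of 0. Of the 18 chaperone genes, 16 were above 0. Of 11 tested genes of transmitter identity 9 were below 0, as were 8 of 9 tested mural and meningeal markers. The immediate early genes split into 9 above and 11 below 0, and the clock genes into 11 and 8. Of 9 microglia markers tested, P2ry12, a purinergic receptor gene, was at -0.37 (unadjusted p = 0.0135) and Tmem119 at 0.63 (0.0322). Both lacked overlap and neither was called. Over all tested genes, 3.93% had an unadjusted p under 0.05 and 2.53% did not overlap. The median of the microglia list was -0.10, and its sums overlapped, at 132.2 to 174.6 CPM in WT and 131.8 to 154.6 CPM in 200H.

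Among markers of neighbouring regions and tissues, several sums were set apart in single libraries. Markers of thalamus, striatum and cortex had no gene with an unadjusted p under 0.05. Markers of mural and meningeal cells summed to 517.7 to 570.1 CPM in WT and to 497.6, 594.7, 252.8 and 731.3 CPM in 200H. The low value was 200H replicate 3 and the high value 200H replicate 4. Blood genes summed to 55.9 CPM in WT replicate 2 and to 123.1 to 184.7 CPM in the other 7 libraries, and Hbb-bs had a log2 fold change of 0.41. Ttr, the defining gene of the choroid plexus, was at most 1.16 CPM in any library. Of 5 ependymal markers tested, 2 were above 0 and 3 below, with a median of -0.08, and 1 had an unadjusted p under 0.05 (Dynlrb2, a dynein light chain gene of cilia, at -1.18).

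**Figure D4:**
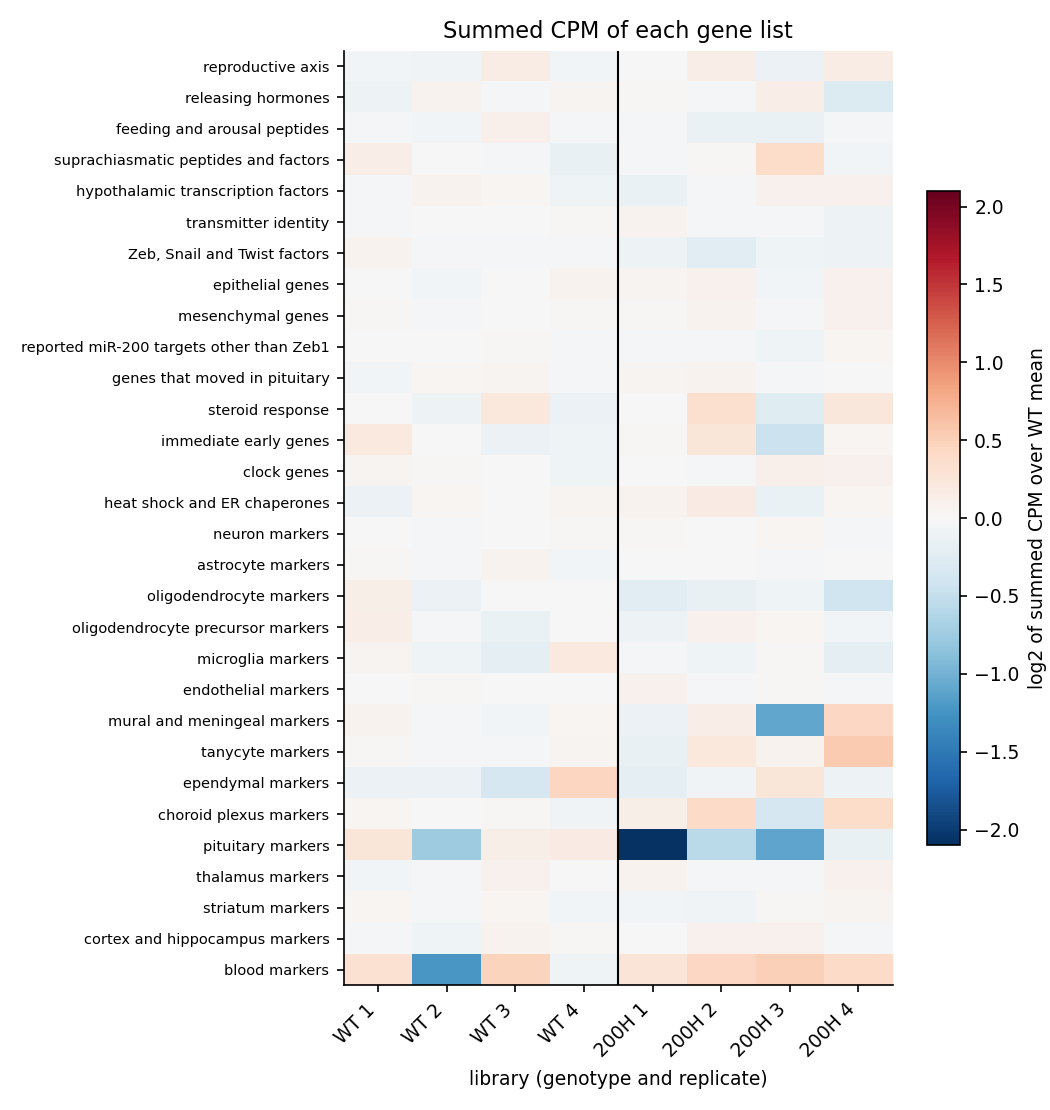
Log2 of the summed CPM of each gene list in each young hypothalamus library over the mean of the WT libraries, on a colour scale of -2.1 to 2.1. The oligodendrocyte row is below the WT mean in each 200H library, whereas the meningeal row is low in 200H replicate 3 and high in 200H replicate 4, and the pituitary row is lowest in 200H replicate 1.

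The same genotype in the pituitary of young females of the same age and stage gave far more differences. In pituitary 2217 of 18049 tested genes were called, which is 12.3%, against 0.0134% in hypothalamus. The pituitary comparison had 4 libraries of 200H and 3 of WT. The difference of the 200H effect, hypothalamus minus pituitary, passed the test in 1026 of 17427 genes, or 5.89%, with 364 of them (2.09%) higher and 662 (3.8%) lower in hypothalamus. A fit that matched libraries of the same replicate number within each tissue called 628 genes, 530 of them among the 1026. In pituitary 1 WT library has no usable replicate number and only replicates 1 and 2 could be matched, so this fit also rests on fewer pituitary libraries. Zeb1 rose in pituitary by 0.44 on the log2 scale (adjusted p = 0.000895), and its difference between tissues was -0.48 (SE 0.09, adjusted p = 0.00125).

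Of 16 genes listed for their change in the pituitary, 9 were abundant enough to test in the hypothalamus and 1, Prl, was called there. In young 200H pituitary 5 of the 16 were called above 0 and 10 below 0. Vim was not called there (log2 fold change 0.42, adjusted p = 0.079). Zeb1 and Cga were called there at log2 fold changes of 0.44 and -0.43 (adjusted p = 0.000895 and 0.00817). The list was chosen from pituitary results of these mice, so the pituitary values are a description and the direction of the difference between tissues is not independent evidence. Nrsn2, a neurensin gene, averaged 388.6 ± 22.3 CPM in WT and 388.6 ± 24.1 CPM in 200H hypothalamus, a log2 fold change of 0.00 (95% interval -0.11 to 0.11), against 2.80 in pituitary. Trank1 had -0.02 (-0.13 to 0.09) against 2.96, and Dnm1, the neuronal dynamin gene, -0.02 (-0.12 to 0.08) against 1.54. Peg10, an imprinted gene of retrotransposon origin, had 0.09 (-0.01 to 0.20) against 1.06, and Tmc4, a transmembrane channel-like gene, 0.14 (-0.20 to 0.47) against -2.11. Of the 16 genes, 15 could be tested for the difference between tissues, some of them only through their pituitary counts. Of these, 8 passed, Zeb1 among them. Capn8 and Epcam also passed although they were too low to test in hypothalamus, with WT means of 0.396 and 0.821 CPM there. Lrat, which is outside this list, did not pass, with a difference between tissues of 0.33 (adjusted p = 0.922). Its log2 fold change was 2.03 in pituitary, where its means were 0.315 ± 0.102 and 1.35 ± 0.46 CPM. Mbp, at -0.25 in hypothalamus, was at -1.02 in pituitary (adjusted p = 7.46e-06), and its difference between the tissues was 0.78 (adjusted p = 7.73e-05).

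**Figure D5:**
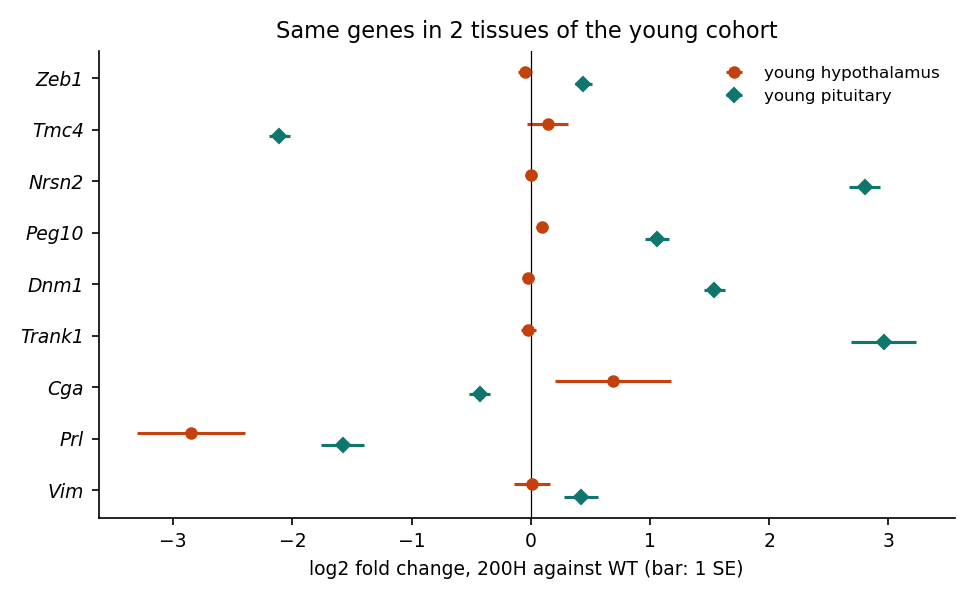
Log2 fold change of 200H over WT, ± 1 SE, for 9 genes in young hypothalamus and in young pituitary. Zeb1 lies at -0.05 in hypothalamus and at 0.44 in pituitary. Nrsn2 and Trank1 lie near 0 in hypothalamus and above 2.7 in pituitary, and Prl lies below 0 in both.

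Older hypothalamus, from 4 200H and 4 WT females of 28 to 36 weeks that had finished a breeding trial, was tested separately because its libraries were prepared from poly(A) RNA without strand and counted against another annotation. These libraries held 10189605 to 12891711 counts. In edgeR 0 of 15908 genes were called (0.0%) and 445 (2.8%) had an unadjusted p under 0.05, and DESeq2 called 7. Zeb1 averaged 135.8 ± 10.0 CPM in WT and 131.5 ± 5.44 CPM in 200H (log2 fold change -0.05, unadjusted p = 0.528). Of the 10 genes above and the 10 below 0 of smallest p in young hypothalamus, 18 were tested in older hypothalamus, where 3 (Lrat, Tekt5 and Pmch) had the same sign and 15 the opposite sign. The value of Pmch there rounded to 0.00.

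Lrat was again higher in each 200H library of the older cohort. It was at 0.546 to 1.63 CPM in WT and at 1.70 to 3.29 CPM in 200H, without overlap (log2 fold change 1.17, SE 0.31, unadjusted p = 0.00266, adjusted p = 1.0). Prl went the other way, averaging 0.634 ± 0.92 CPM in WT and 9.34 ± 10.6 CPM in 200H (log2 fold change 3.78, unadjusted p = 0.00111, adjusted p = 1.0), and Gh did so as well, with means of 0.201 and 11.9 CPM. The 10 mature oligodendrocyte markers had a median of 0.07 with 1 below 0. Zeb2, below 0 in young hypothalamus, had a log2 fold change of 0.20 (unadjusted p = 0.0246). The difference between the cohorts was not tested.

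Young hypothalamus of 200M females, with the sites mutated in both Zeb1 alleles, was compared with the same 4 WT libraries, so its values are not independent of those above. In that comparison 3 of 14986 genes were called (0.02%). Lrat was at 3.63 on the log2 scale (SE 0.55, adjusted p = 0.00605), with a mean of 25.2 ± 23.4 CPM in 200M, beside 2.31 in 200H. Prl had -2.86 (adjusted p = 0.00605) beside -2.85, and Tshb, the third gene called, had 4.81 (adjusted p = 0.00642), from a WT mean of 0.225 CPM to 8.01 CPM. Dio2 had 1.16 beside 0.57, Tac2 0.74 beside 0.39 and Esr1 0.54 beside 0.27, and none of these 3 was called in either genotype. The mature oligodendrocyte markers had a median of -0.19 beside -0.22, Zeb2 -0.22 beside -0.22 and Zeb1 -0.17 (adjusted p = 0.871) beside -0.05.

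Genes near Zeb1 on chromosome 18, which are inherited together with the mutant allele, were counted separately. Of 57 tested genes within 10 Mb on either side none was called, 3 had an unadjusted p under 0.05, which is 5.26% of them against 3.93% of all genes, and the median log2 fold change was 0.01.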

How the data were processed

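RNA of flash-frozen hypothalamus was sequenced in 8 young libraries. Per the submitters' processing notes and the study's methods, young libraries were depleted of ribosomal RNA, stranded and paired-end, and the authors aligned reads with STAR 2.7.1a to mm10 and counted them by strand with featureCounts on GENCODE genes. The older libraries were counted without strand by HTSeq 0.9.1. The authors deposited raw counts per gene and library in 18 tables, beside their own DESeq2 (1.18, 1.38.3) fold changes and p-values, which were not used.

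Groups came from the sample labels, and gene positions from a GENCODE annotation of GRCm38 (mm10). Counts were tested with edgeR 4.0.16 in R 4.3.3 (quasi-likelihood F test, 2-sided, TMM scaling, filterByExpr, Benjamini-Hochberg adjustment over all tested genes, calls at an adjusted p under 0.05), on the 4 libraries of each genotype. The difference between tissues was an interaction term. The method was tested on simulated data. Alternatives were DESeq2 1.42.0, limma 3.58.1 (voom), RLE size factors, no filter, a mean of 50 counts, 12 libraries with 200M, a replicate block and leaving out each library.

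The genes named were the Zeb and miR-200 host genes, called genes, the 10 of smallest p in each direction, all members of 4 lists and 2 from each other list, and further members of the 30 lists were named after their values were seen. The comparison and lists were chosen with earlier results of these data known. CPM precision is limited by depth. Replicates were different mice. The results of 2 genes are not reported here, and these genes are left out of all lists and counts after the fit.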

Additional observations from a re-analysis of the deposited data

Results flagged for a closer look

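In 13 of 280 sets of 4 libraries examined, 1 library lay far from the other 3 of its genotype by Dixon's test, and chance flags about 1 in 20 sets. Among the single genes these were Creb5 in WT replicate 2 (21.9 CPM), Zeb2 in WT replicate 1 (252.8 CPM), Sst in WT replicate 1 (36.9 CPM), Tent5c in 200H replicate 4 (15.1 CPM) and Egr1, an immediate early gene, in 200H replicate 3 (65.1 CPM). Dynlrb2 in 200H replicate 1 (3.23 CPM), Kiss1 and Esrp1 in 200H replicate 4 (0.581 CPM each) and the miR-200 host Gm13648 in WT replicate 2 (0.528 CPM) were the high value of their sets, and the cortical factor gene Tbr1 in WT replicate 1 (2.9 CPM) was the low value. For Kiss1, Esrp1 and Gm13648 the other 3 libraries of the set had no count. Any count in the remaining library would then be flagged, so the rate of 1 in 20 does not apply to these sets. Among summed lists they were the reproductive axis in WT replicate 3 (525.1 CPM), the Zeb, Snail and Twist factors in WT replicate 1 (481.3 CPM) and the pituitary markers in WT replicate 2 (21.6 CPM).

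The 200H effect differed between young hypothalamus and young pituitary in 1026 genes, 22 of which are named here with the difference of log2 fold changes, hypothalamus minus pituitary. Lower in hypothalamus were Trank1 (-2.96), Nrsn2 (-2.78), Snx22 (-2.39), the enkephalin gene Penk (-1.85), Dnm1 (-1.55), the non-coding RNA 1110018N20Rik (-1.49), Peg10 (-0.95) and the glutamate transporter gene Slc1a2 (-0.85). Smaller differences in the same direction were those of the BDNF receptor gene Ntrk2 (-0.73), the neuronal tubulin gene Tubb3 (-0.64), the prolactin receptor gene Prlr (-0.55) and Zeb1 (-0.48). Snx22 and 1110018N20Rik were named for being among the 10 genes below 0 of smallest p in these hypothalamus libraries. The direction of their difference between tissues is therefore not independent evidence. The same holds for Trank1, Nrsn2, Dnm1 and Peg10, named from the list chosen from pituitary results of these mice. Zeb1, the edited gene, is also on that list. Snx22 was too low to test in pituitary.

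Higher in hypothalamus were the epithelial genes Capn8 (4.68), Epcam (2.4), Tmc4 (2.26), Spint2 (1.62) and Mal2 (0.96), the neurokinin B receptor gene Tacr3 (1.43), the vesicular glutamate transporter gene Slc17a6 (1.09) and the GABA synthesis gene Gad2 (1.01). Mbp (0.78) and the Wnt effector gene Tcf7l2 (0.67) also differed in that direction. For Mbp the log2 fold change in pituitary was -1.02. Capn8, Epcam and Tmc4 came from the list chosen from pituitary results of these mice. The direction of the difference for these genes is therefore not independent evidence. Capn8 and Epcam were too low to test in hypothalamus, at means of 0.396 and 0.821 CPM in WT. They were tested here only through their pituitary counts, at 34.1 and 181.9 CPM in WT, so their differences rest on the pituitary values. The labels do not say whether the hypothalami and pituitaries came from the same mice.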

How the results depend on the processing

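The 2 calls (Lrat and Prl) were also made with RLE size factors and with the replicate block. limma voom called 1 (Lrat), DESeq2 called 0 (362 genes at an unadjusted p under 0.05), a filter at a mean of 50 counts left 9262 genes, without Lrat and Prl, and called 0 in edgeR (371 at an unadjusted p under 0.05), no filter called 9, and a fit with the 200M libraries called 0 in edgeR (459 at an unadjusted p under 0.05). With 1 library left out the count was 1 to 7: 1 without WT replicate 1 or 200H replicate 2 (Prl in both), 7 without 200H replicate 3 (the 2 with Creb5, Gh, Mbp, Tspan2 and Zbtb16), and 4 without 200H replicate 4 or WT replicate 4. The difference between tissues had 817 to 917 calls with 1 hypothalamic library left out and 628 with the replicate block, in which Zeb1 had -0.49 (adjusted p = 0.0116). Older hypothalamus had 7 calls with DESeq2, 97 with no filter, and 0 to 1 with 1 library left out. Igf2, at -0.02, was 0.28 without 200H replicate 3 (unadjusted p = 0.00044), and -0.33 to 0.28 with any 1 library left out. Of 1429 values of 97 named genes under the alternatives, 1410 kept their direction and side of the threshold, and sign changes of genes at an unadjusted p of 0.05 or more in both fits, 64 in 26 genes, were not counted as reversals. Of 330 list medians, 7 moved by more than the spread, and these alternatives for lists were added after seeing the data. The replicate numbers did not pair the libraries: same-numbered libraries correlated at -0.0712 to -0.00585 in their deviations, and no 200H library correlated best with its own number. The cause of these changes was not tested. Depth limited genes of few counts, among them Gnrh1, Kiss1, Agrp and the miR-200 hosts, which did not pass the filter for testing.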
